A study of Mus musculus with 26 samples.

Results

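The transcripts of 10 enzymes that handle extracellular nucleotides were followed through the mesenteric arteries of mice with a changed or missing pannexin 1 channel: Entpd1, Entpd2, Entpd3, Entpd5, Nt5e, Enpp1, Enpp2, Enpp3, Alpl and Ada. The rule that picks them uses gene symbols only, although the set was drawn up with earlier results of these data known. All 10 were found among the 21031 genes of the deposited normalized table. Mesenteric arteries are the small vessels that supply the gut. RNA came from male mice aged 8 weeks, and each of the 26 libraries is a labelled sample. The wild-type group (WT) and the global knockout group (Panx1 KO) had 3 libraries each. The Y198F line had 3 controls, with the genotype Y198F-/-, and 3 mutants, with the genotype Y198F+/+. The S205A line had 4 controls (S205A-/-) and 4 mutants (S205A+/+), although the series' design text gives 3 vascular trees for each genotype. The Y308F line had 3 controls (Y308F-/-) and 3 mutants (Y308F+/+). The design text calls the controls littermate or wild-type animals. No treatment is given for any group, the changes are not tied to a cell type, and the labels give neither strain nor pooling of animals. Replicates are labelled as separate samples, but not as separate animals, so p-values measure the spread between these samples.

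Pannexin 1 forms channels through which cells release ATP. Outside the cell, ATP acts on purinergic receptors until enzymes on the cell surface remove its phosphates. The ENTPD enzymes take ATP and ADP to AMP, and the ENPP enzymes split ATP into AMP and pyrophosphate. Nt5e (CD73) takes AMP to adenosine, which relaxes many arteries, and Ada turns adenosine into inosine. Alpl, an alkaline phosphatase, removes phosphate from nucleotides and from pyrophosphate.

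Each library held 14.9 to 23.62 mega-counts. Panx1 itself ran from 0.582 to 1.36 CPM (counts scaled to library size by the TMM method) in the 3 Panx1 KO libraries and from 3.38 to 4.96 CPM in the 3 WT libraries. S205A controls ran from 0.83 to 4.35 CPM, so their lowest value lay within the Panx1 KO range. The tissue label fitted its markers: all 8 smooth muscle and all 8 endothelial genes of the marker lists were detected in each group. The smooth muscle list summed to between 20640 and 43089 CPM. Library S205A control 1 stood apart with an endothelial list level of 5.69 (mean log2 CPM), against 7.19 to 7.77 in the other S205A controls. The names of 9 libraries hold a number starting with 22, and these libraries are called the 22 series. They are Y198F 1 to 3, S205A control 1 to 3 and S205A 2 to 4, and the labels do not say what the number stands for. In the fit of all libraries, with the 8 groups and the series as terms, 11.7% of genes passed for the series. Only the S205A line holds libraries inside and outside the series. The series coefficient, and values given with series as a term, thus rest on S205A control 4 and S205A 1 against the other libraries of that line. All Y198F mutants and none of their controls belong to the 22 series, so series and genotype cannot be told apart in that comparison. In bulk RNA, fewer cells of a type and less RNA per cell cannot be told apart either.

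The ENTPD group led by Entpd1 (CD39) supplied most of the measured transcript. The 4 members share a stretch called apyrase conserved region 1, which holds part of the nucleotide-binding site. Its coding bases are shown so that the positions these genes share, and those where they differ, can be read. Capitals mark the 13 of 36 bases that are the same in all 4 genes. The bases were read 5′ to 3′ in the direction of transcription from GRCm39 at the GENCODE vM39 coding annotation.
Entpd1: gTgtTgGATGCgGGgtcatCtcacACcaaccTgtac
Entpd2: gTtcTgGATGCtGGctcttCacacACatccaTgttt
Entpd3: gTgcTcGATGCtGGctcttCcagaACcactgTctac
Entpd5: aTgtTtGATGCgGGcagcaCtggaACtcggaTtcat
The Entpd1 window lies in exon 3 at chr19:40708910-40708945 on the plus strand. That of Entpd2 lies in exon 2 at chr2:25287417-25287452, also on the plus strand. For Entpd3 it is exon 4 at chr9:120383144-120383179, plus strand, and for Entpd5 exon 3 at chr12:84443481-84443516, minus strand. Entpd1 and Entpd2 had 24 of 36 bases the same, and Entpd1 and Entpd3 had 23. Entpd5, which is known mainly as an enzyme of the endoplasmic reticulum acting on UDP and GDP, shared 18 with Entpd1 and 16 with Entpd2.

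Entpd1 (ENSMUSG00000048120, chr19:40600810-40731585, plus strand) had 53.8 ± 5.96 CPM per kilobase of merged exons (SD, n = 26). That level exceeded those of 97.1% of 14868 detected protein-coding genes. Entpd1 made up 64.9% ± 5.84 (SD, n = 26) of the summed level of the 10 genes, with a range from 53.2% to 77.3%. Entpd2 (ENSMUSG00000015085, chr2:25285691-25291424, plus strand) followed at 9.74 ± 4.29 and Alpl (chr4:137469039-137524102, minus strand) at 9.47 ± 3.19 CPM per kilobase (SD, n = 26 each). These neighbours were not separated: Entpd2 was above Alpl in 14 of 26 libraries. With the longest annotated transcript as the length, Alpl came first, at 15.9 ± 5.36 against 10.8 ± 4.77 (SD, n = 26 each). Ada and Entpd5, and Enpp2 and Enpp3, changed places when the canonical transcript set the length. Enpp1 (chr10:24513812-24588057, minus strand) had 4.05 ± 0.778, Entpd5 (chr12:84420631-84455812, minus strand) 2.31 ± 0.533 and Ada (chr2:163565705-163592159, minus strand) 1.62 ± 0.545 CPM per kilobase. Enpp2 (chr15:54701324-54816288, minus strand) had 0.996 ± 0.849 and Enpp3 (chr10:24648304-24718721, minus strand) 0.836 ± 0.359, and Enpp2 exceeded Enpp3 in 14 of 26 libraries. The AMP-cleaving enzyme Nt5e (chr9:88209089-88254146, plus strand) stood far lower at 0.149 ± 0.129 CPM per kilobase. Entpd3 (chr9:120368783-120397478, plus strand) was lowest at 0.0288 ± 0.0479.

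**Figure D1:**
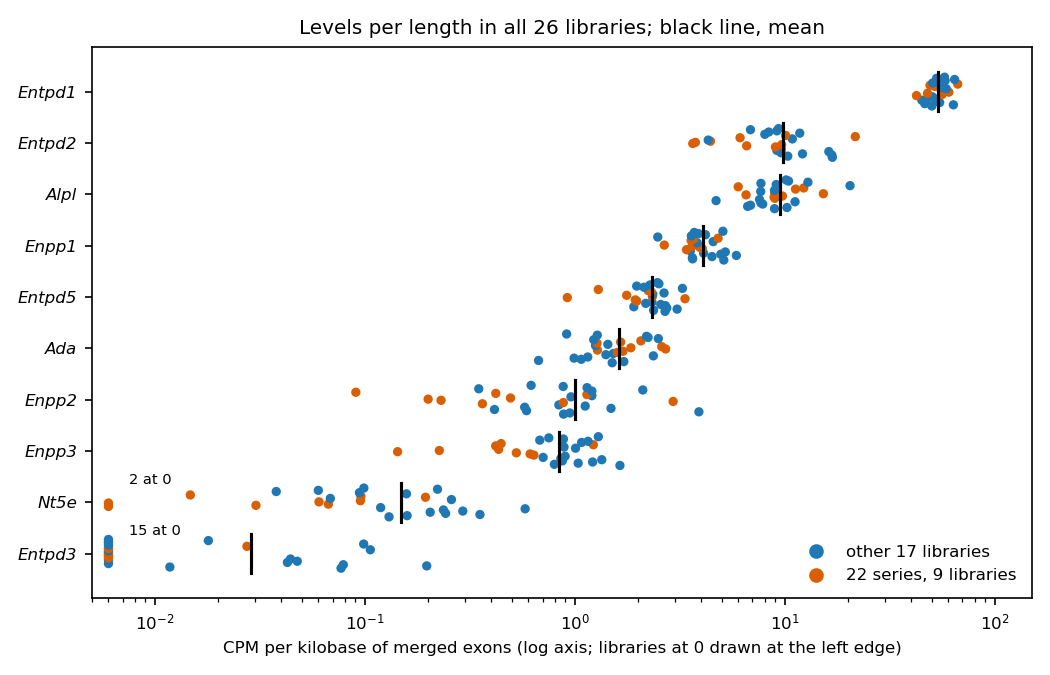
Level of each gene in CPM per kilobase of merged exons (log axis) in all 26 libraries. Points are libraries (orange, the 9 libraries of the 22 series; blue, the other 17) and black lines are means. Entpd1 lies above every other gene in all 26 libraries, and Nt5e and Entpd3 lie at the low end, with 2 and 15 libraries at 0.

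Exon overlap with other genes bears on some of these levels, since the sources do not say whether strand was used in counting. Exons of Entpd2 overlap Npdc1, and those of Alpl overlap Gm63526, on the same strand. On the opposite strand, Entpd5 overlaps Coq6 and Bbof1, Ada overlaps Pkig, and Entpd1, Enpp2 and Enpp3 overlap predicted genes. Reads from such stretches cannot be assigned with certainty.

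The libraries spread very differently from gene to gene. Entpd1 varied least, with a within-group SD of 0.15 (log2 CPM), above that of only 18.4% of the 12911 genes with a mean log2 CPM of at least 1, whose median was 0.24. Enpp2 and Nt5e varied most, with 1.17 and 1.19, each above 99.2% of those genes. For Entpd2, 73.3% of the variance of log2 CPM lay between the 8 groups, against a median of 37.6% over all these genes. For Enpp3 that share was 51.3%, and for the remaining 7 genes with a mean of at least 20 counts it ran from 22.7% to 47.1%.

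**Figure D2:**
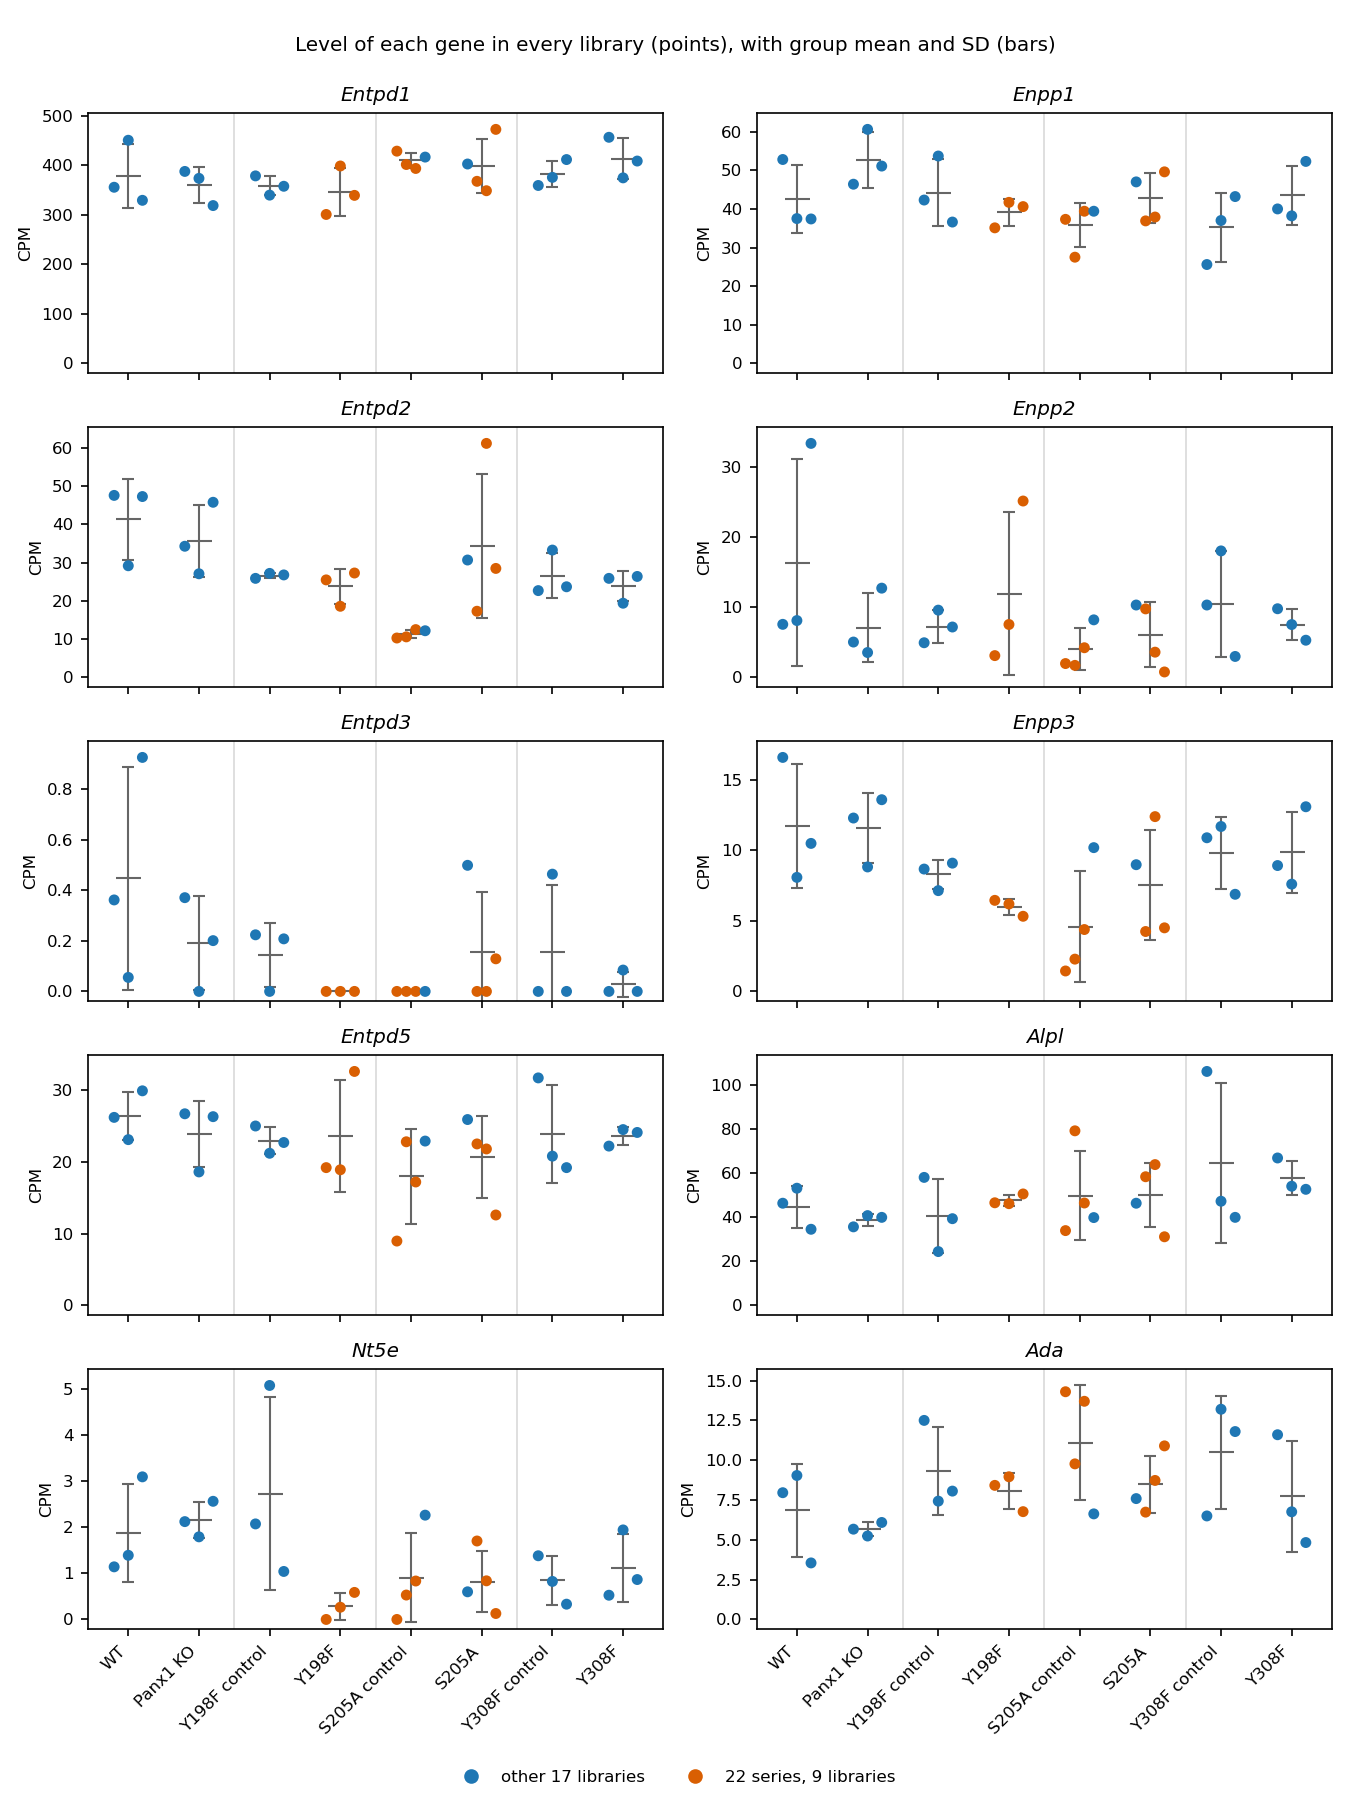
CPM of each of the 10 genes in every library, by group. Points are libraries (orange, 22 series; blue, others), and bars are group mean ± SD (n = 3, or 4 in the S205A line). The 4 S205A controls lie at 10.3 to 12.5 CPM of Entpd2, below each of the other 22 libraries, and the Y198F libraries are low for Nt5e.

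Whether loss of pannexin 1 altered these enzymes was asked by setting Panx1 KO against WT libraries. No member passed the threshold, an adjusted p under 0.05 in edgeR's quasi-likelihood test, where 0.0309% of all 16193 tested genes did. At an unadjusted p under 0.05 the count of members was also 0, where 11.2% of all genes tested were counted. In DESeq2 it was 0 as well, where 0.362% of genes with a count passed. Of the 10 genes 9 could be tested, because edgeR's filter on low counts removed Entpd3 in each comparison. Entpd1 measured 388, 374 and 319 CPM in Panx1 KO against 356, 451 and 330 CPM in WT, and the groups overlapped. Its log2 fold change was -0.05 (SE 0.149, adjusted p = 0.928 by edgeR). Enpp1, a main source of extracellular pyrophosphate, measured 46.4, 60.6 and 51.1 CPM in Panx1 KO and 52.8, 37.5 and 37.4 CPM in WT. The Panx1 KO values were mostly higher but overlapped WT, with a log2 fold change of 0.33 (SE 0.158, adjusted p = 0.474 by edgeR). Enpp2 (autotaxin) is best known for making lysophosphatidic acid. It measured 5.03, 3.54 and 12.7 CPM in Panx1 KO against 7.55, 8.09 and 33.3 CPM in WT. WT replicate 3 was high. The log2 fold change of Enpp2 was -1.18 (SE 0.836, adjusted p = 0.659 by edgeR), and without that library it was -0.12. White adipocyte markers leaned lower in the same comparison: 0 of the 8 genes of that list were above 0, with a median log2 fold change of -1.46, where 50.8% of all genes were above 0. None of the 8 passed, and their sums overlapped, at 196 to 957 CPM in Panx1 KO and 538 to 3138 CPM in WT. Other lists leaned as well: 0 of 8 smooth muscle genes were above 0 (median -0.24), against 7 of 8 macrophage genes (median 0.48). Of the tested genes, 5 of 7 lymphocyte (median 0.37) and 3 of 5 mast cell genes (median 0.94) were above 0. The endothelial, fibroblast and Schwann cell medians were -0.05, -0.11 and 0.03. No gene of these lists passed. The part of fat cell content, or of other cell types, in the value of Enpp2 was not tested. No member's groups were free of overlap here, where 18.8% of all tested genes had none. The log2 fold changes of the 9 tested members had a median of -0.12, against 0.01 over all genes, and 3 of 9 were above 0.

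Entpd2 had values without overlap in the S205A line. This enzyme prefers ATP over ADP and is known from vascular adventitial cells and glia. It measured 30.7, 17.3, 61.2 and 28.5 CPM in the S205A libraries and 10.3, 10.6, 12.5 and 12.2 CPM in their controls. Every S205A library was above every control, a ratio of means of 3.02 (34.4 ± 18.8 against 11.4 ± 1.12 CPM, SD, n = 4 each). The log2 fold change was 1.60 (SE 0.333). The difference of mean log2 CPM was 1.44, with an exact two-sided permutation p = 0.029, the smallest that 4 against 4 allows. Entpd2 did not pass the threshold over all genes (edgeR adjusted p = 0.933), where 0% of 15709 genes passed. It was the only member with an unadjusted p under 0.05 (0.000863 by edgeR's test), where 2.87% of all genes tested were counted. In DESeq2 it did pass (adjusted p = 0.00296), where 0.138% of genes with a count passed. The authors' deposited table gave Entpd2 a log2 fold change of 1.59 (SE 0.265, adjusted p = 1.87e-05), and 0.495% of its genes were past 0.05. Of all genes tested, 1.81% had groups without overlap, and Entpd2 was the only member of the 9 tested that did. Without S205A replicate 3, the highest library, the log2 fold change was 1.16 (edgeR adjusted p = 1). Within the 22 series, 3 libraries against 3, it was 1.69 (SE 0.455, adjusted p = 1 by edgeR).

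The difference in Entpd2 lay between low controls and mutants at the level of the other lines. All 4 S205A controls were below each of the 22 libraries of the other 7 groups, whose lowest value was 17.3 CPM. Only S205A replicate 3 was above all libraries of the other groups. In order, the group means of Entpd2 were 11.4 CPM in S205A controls, 23.8 ± 4.62 in Y198F, 23.9 ± 3.90 in Y308F, 26.6 ± 0.666 in Y198F controls and 26.6 ± 5.84 in Y308F controls. S205A (34.4), Panx1 KO (35.8 ± 9.42) and WT (41.3 ± 10.5) followed, and their values overlapped with one another. Relative to Entpd1, per kilobase, Entpd2 stood at 0.0699 ± 0.00855 in S205A controls and 0.225 ± 0.146 in S205A (SD, n = 4 each). In the other 6 groups the mean ratio ran from 0.145 to 0.286. Npdc1, whose exons overlap Entpd2, ran from 79.6 to 135 CPM in S205A and from 71.5 to 155 CPM in controls.

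Marker lists went in both directions in this line. All 8 genes of the fibroblast and adventitia list had log2 fold changes above 0 in S205A, with a median of 1.30, though none passed the threshold. Their summed level ran from 2647 to 6605 CPM in S205A and from 1692 to 2578 CPM in controls, without overlap, but by mean log2 CPM the groups did overlap, with S205A replicate 2 at 7.30 and control 4 at 7.76. Of the 7 tested Schwann cell and myelin genes, 6 were above 0, with a median of 0.94, and the list summed to 122 to 218 CPM against 77.8 to 119.7. By mean log2 CPM that list overlapped too, with S205A replicate 4 at 3.21 and control 4 at 3.25. No gene of either list was at 0 in these groups. The macrophage list had 8 of 8 genes above 0 (median 0.59), and its sums overlapped, with medians of 53.4 CPM in S205A and 30.7 CPM in controls and highest sums of 84.0 and 60.1 CPM. Of the lymphocyte genes tested, 5 of 6 were above 0 (median 0.52), with sums of 4.13 to 25.3 CPM against 1.61 to 16.3 CPM. The intestinal epithelium list had 3 of 3 tested genes above 0 (median 0.44), with low sums of 14.9 to 24.2 CPM against 11.4 to 14.8 CPM and 2 of its 8 genes at 0 in each group (Epcam and Fabp2 in S205A, Cdh17 and Krt20 in controls). Of the white adipocyte genes 1 of 8 was above 0 (median -0.51), of the smooth muscle genes 1 of 8 (median -0.10) and of the endothelial genes 3 of 8 (median -0.05). No gene of these lists passed the threshold, and 46.9% of all genes tested were above 0. Over the 9 libraries of the 22 series, Entpd2 followed the fibroblast list with Pearson's r = 0.94 (exact permutation p = 6.34e-05, adjusted 0.00521) and Spearman's rho = 0.92 (exact permutation p = 0.00131, adjusted 0.0236). Without the 2 libraries farthest from the median of the list, r was 0.90 (exact permutation p = 0.00714, adjusted 0.193). In the 17 other libraries r was 0.72 (permutation p = 0.0016, adjusted 0.0472) and rho 0.67 (permutation p = 0.00413, adjusted 0.0929), so the relation passed there by Pearson's measure only. Without the 2 farthest, r there was 0.67 (permutation p = 0.00544, adjusted 0.0979). In the same 17 libraries Entpd2 also passed with the Schwann cell and myelin list by Pearson's measure only, with r = 0.68 (permutation p = 0.00262, adjusted 0.0472) and rho = 0.59 (permutation p = 0.0137, adjusted 0.107). Without the 2 farthest, that r was 0.47 (permutation p = 0.0781, adjusted 0.335), and within the series it was 0.57 (exact permutation p = 0.103, adjusted 0.388). P-values were adjusted over the 90 relations of 9 members with 10 marker lists in each set of libraries. Libraries were permuted without regard to group, here and for each relation given below, so these p-values also take in differences between groups. Within the series, the S205A controls were the lowest libraries for both Entpd2 and the fibroblast list. The part of fibroblast content, or of the other cell types, in the difference of Entpd2 was not tested.

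**Figure D3:**
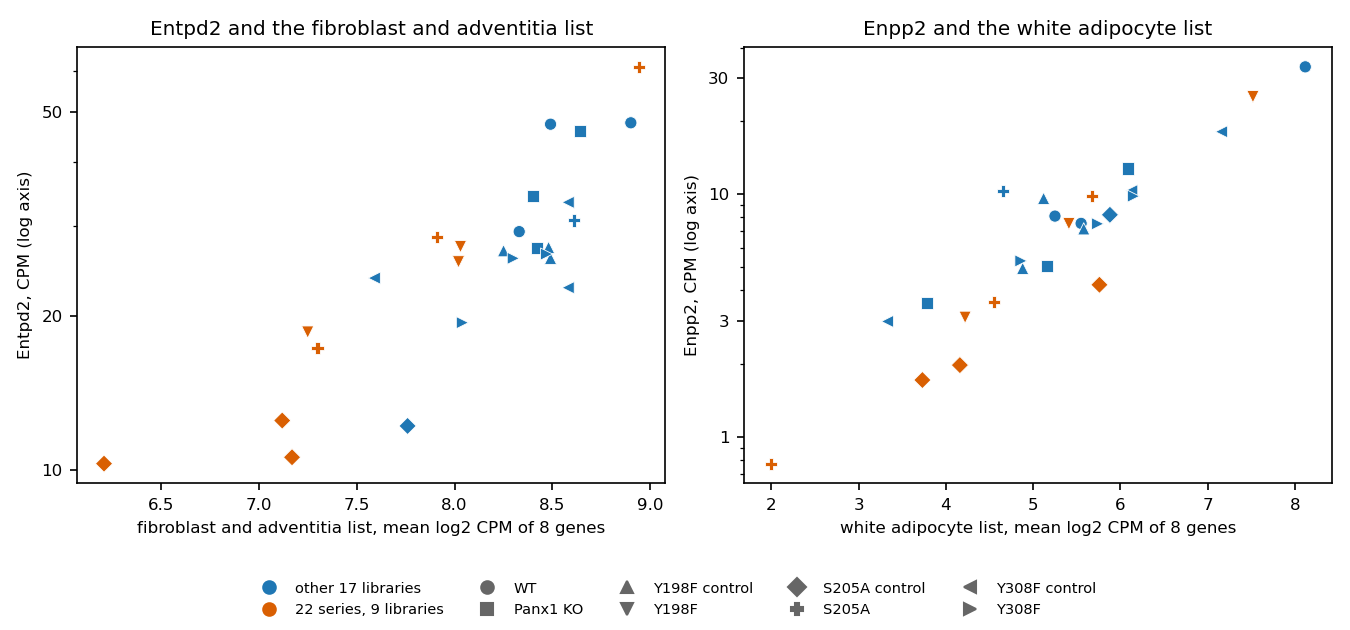
Left, CPM of Entpd2 (log axis) against the mean log2 CPM of the 8 fibroblast and adventitia genes. Right, CPM of Enpp2 (log axis) against that of the 8 white adipocyte genes. Each point is a library, marker shape gives the group and colour the library series. The S205A controls (diamonds) lie at the low end of the left plot, and the S205A libraries (plus signs) spread upward from them.

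The other members in the S205A line overlapped between groups. Enpp3, an ENPP enzyme known from mast cells, basophils and epithelia, measured 8.99, 4.25, 12.4 and 4.51 CPM in S205A. In controls it measured 1.45, 2.29, 4.39 and 10.2 CPM, the last value being the only control outside the 22 series. The log2 fold change of Enpp3 was 0.71 (SE 0.603, adjusted p = 1 by edgeR) and within the 22 series 1.39 (SE 0.573, adjusted p = 1 by edgeR). Ada measured 7.59, 6.74, 8.73 and 10.9 CPM in S205A against 14.3, 9.77, 13.7 and 6.63 CPM in controls. Its log2 fold change was -0.38 (SE 0.269, adjusted p = 1 by edgeR). Entpd5 was lowest of all 26 libraries in S205A control 1, at 8.97 CPM, the library with the low endothelial level. Over the 9 tested members the median log2 fold change was 0.21, against -0.01 for all genes, and 6 of 9 were above 0.

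In the Y198F line, Nt5e was the only member past the threshold, in a comparison where 15.0% of all 16050 genes tested passed it. Nt5e measured 0, 0.265 and 0.586 CPM in Y198F (0, 5 and 11 counts) and 2.07, 5.07 and 1.04 CPM in controls (37, 90 and 20 counts). The values did not overlap, with a log2 fold change of -3.24 (SE 0.926, adjusted p = 0.0423 by edgeR). The difference of mean log2 CPM was -2.96, with an exact two-sided permutation p = 0.1, the smallest that 3 against 3 allows. The gene entered the test through its controls, since 2 of the 3 mutant libraries had under 10 counts, so it could pass the filter on low counts only by being higher in controls. The call was lost without Y198F replicate 2 (-3.19, edgeR adjusted p = 0.142) and without control 1 (-3.40, 0.0816), control 2 (-2.44, 0.175) or control 3 (-3.63, 0.0598). It was also lost with all 8 groups in a single fit (-3.23, edgeR adjusted p = 0.0752) and with the replicate number as a block (-3.28, edgeR adjusted p = 0.0746). In DESeq2, which called 9.09% of genes with a count, the adjusted p was 0.00148. When library series entered the model, with its effect taken from the S205A line alone, Nt5e was at -2.05 (log2, adjusted p = 1 by edgeR).

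Markers of other cell types differed in the same comparison. Of the 7 tested Schwann cell and myelin genes 3 passed as lower in Y198F: S100b at -0.89, Mbp at -0.85 and Cdh19 at -0.85 (edgeR adjusted p = 0.012, 0.0125 and 0.0202). That list had a median of -0.82, with 1 of 7 above 0, and summed to 122 to 142 CPM in Y198F against 154 to 250.3 CPM in controls, without overlap. The fibroblast and adventitia list had 2 of 8 genes above 0 (median -0.72) and also summed without overlap, to 2467 to 3522 CPM against 3577 to 4546 CPM. The macrophage list had 0 of 8 above 0 (median -0.60) and the white adipocyte list 8 of 8 (median 1.25), and the sums of both overlapped between groups. No gene of these last 3 lists passed. Among the smooth muscle genes Tagln (1.14, edgeR adjusted p = 0.00361) and Smtn (0.54, 0.0164) passed as higher and Lmod1 (-0.48, 0.0161) as lower, with 5 of 8 above 0 (median 0.27). Among the endothelial genes Cldn5 passed as higher (0.59, edgeR adjusted p = 0.0043), with 6 of 8 above 0 (median 0.15). The endothelial sums did not overlap, at 4927 to 5338 CPM in Y198F and 3824 to 4879 CPM in controls, and the smooth muscle sums did. By mean log2 CPM the endothelial list did overlap, with Y198F replicate 1 at 7.35 and control 2 at 7.52. Over all lists, 49.7% of all genes tested were above 0. No marker of these 6 lists was at 0 in either group. Their part in the values of Nt5e and Enpp3 was not tested.

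Low Nt5e values were not limited to the Y198F libraries. The gene measured 0, 0.529 and 0.833 CPM in S205A controls of the series against 2.26 CPM in the control outside it. S205A libraries of the series measured 1.70, 0.837 and 0.129 CPM, and the library outside it 0.599 CPM. Over the series Nt5e averaged 0.542 ± 0.542 CPM (SD, n = 9), a mean that includes the 3 Y198F libraries. It was 0.672 ± 0.613 CPM without them (SD, n = 6) and 1.71 ± 1.16 in the libraries outside the series (SD, n = 17). Outside the series, too, Y308F controls had 0.846 ± 0.526 CPM and Y308F libraries 1.11 ± 0.741 CPM (SD, n = 3 each). The series coefficient from the fit of all groups, -1.17, did not pass (SE 0.968, adjusted p = 0.501 by edgeR). That coefficient rests on the S205A line alone, the only line with libraries inside and outside the series. A zero in a library of this depth allows up to 3 counts, or 0.127 to 0.196 CPM, and intervals of this kind cover counting error only.

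Enpp3 was the other member whose Y198F values did not overlap with controls, which held for 34.2% of all genes tested. It measured 6.46, 6.20 and 5.33 CPM in Y198F and 8.68, 7.15 and 9.10 CPM in controls. Its log2 fold change was -0.47 (SE 0.216, adjusted p = 0.171 by edgeR). The mean of Enpp3 was 5.26 ± 3.15 CPM in the series (SD, n = 9) and 10.2 ± 2.60 CPM outside it (SD, n = 17). The series coefficient of Enpp3, -1.20, which rests on the S205A line alone, did not pass (SE 0.409, adjusted p = 0.0593 by edgeR). With series as a term, the Y198F log2 fold change of Enpp3 turned to 0.73. Entpd2 showed no such difference against the labelled controls, with 25.5, 18.6 and 27.3 CPM in Y198F and 25.9, 27.2 and 26.8 CPM in controls (log2 fold change -0.17, SE 0.151, adjusted p = 0.513 by edgeR). Npdc1, which shares exon bases with Entpd2, ran from 137 to 147 CPM in Y198F and from 79.8 to 88.5 CPM in controls, without overlap, and its part in the Entpd2 values was not tested. Against the 3 S205A controls of the 22 series the log2 fold change of Entpd2 was 1.09 (SE 0.193, adjusted p = 1 by edgeR), so the sign for Entpd2 turned with the controls used. The authors' deposited table for Y198F gave Entpd2 a log2 fold change of 1.05 (SE 0.286, adjusted p = 0.148). That table cannot be taken as a comparison with the labelled controls. Over 11232 genes with a mean of at least 100 counts, its fold changes differed from log2 ratios of Y198F to the 4 S205A controls by a median of 0.0102, and from ratios to the labelled controls by 0.179. Across these genes, which are not independent replicates, r was 1.0 and 0.42. The 9 tested members had a median log2 fold change of -0.17, against 0 over all genes, and 3 of 9 were above 0.

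Nothing among the members changed past the threshold in the Y308F line, where 0% of 16037 genes did in edgeR. Members with an unadjusted p under 0.05 also numbered 0, where 4.40% of all genes tested were counted, and DESeq2 called 0 members and 0% of genes with a count. No member had groups without overlap, which 10.7% of all genes tested had. Alpl measured 66.8, 54.0 and 52.6 CPM in Y308F and 106, 47.2 and 39.9 CPM in controls, and control 1 was the highest of all 26 libraries. Its log2 fold change was -0.15 (SE 0.368, adjusted p = 0.986 by edgeR). Ada measured 11.6, 6.76 and 4.83 CPM in Y308F and 6.50, 13.2 and 11.8 CPM in controls, with a log2 fold change of -0.43 (SE 0.371, adjusted p = 0.949 by edgeR). Enpp1 measured 40.0, 38.2 and 52.3 CPM against 25.6, 37.0 and 43.2 CPM, a log2 fold change of 0.32 (SE 0.203, adjusted p = 0.94 by edgeR). The groups overlapped for each of these genes. The 9 members had a median log2 fold change of -0.01, against -0.03 for all genes, and 4 of 9 were above 0.

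**Figure D4:**
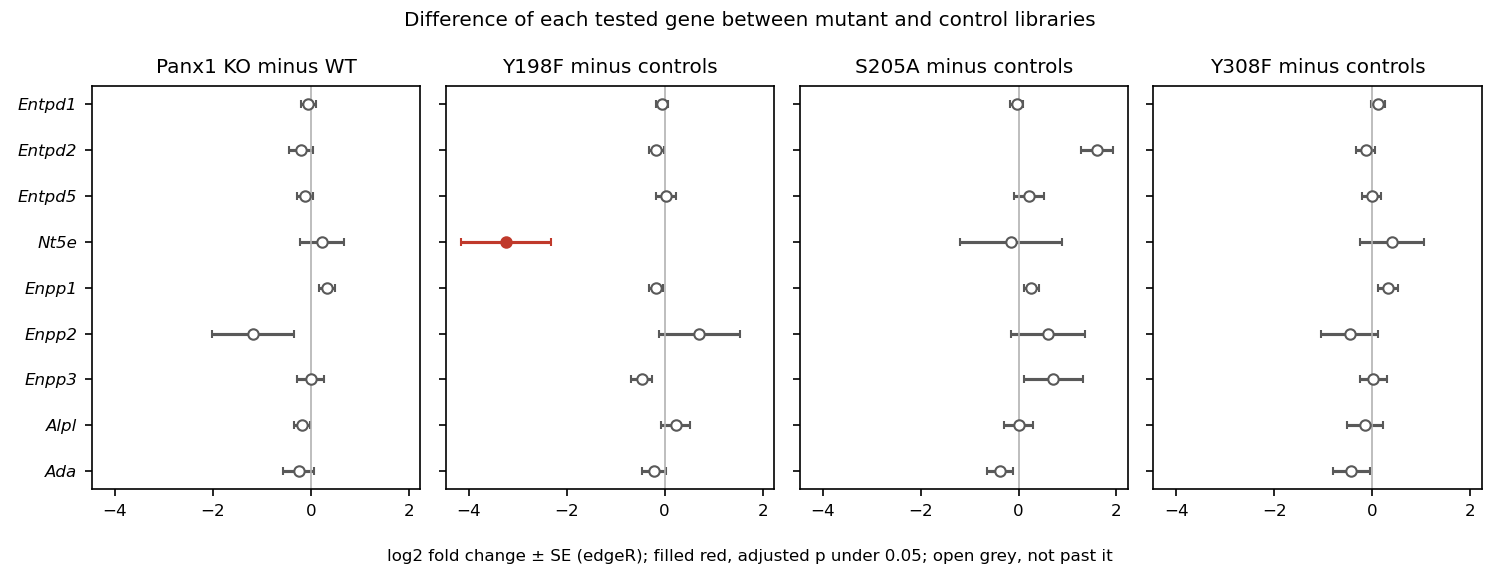
Log2 fold change ± SE (edgeR) of the 9 tested genes in the 4 comparisons of mutant with control libraries. The red point, Nt5e in Y198F at -3.24, is the only value with an adjusted p under 0.05. Entpd2 in S205A lies at 1.60 with an adjusted p of 0.933.

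Whether 2 mutations differed in their effect was tested in 6 pairs of comparisons. Only Nt5e passed, for Panx1 KO against Y198F, at 3.46 (SE 1.06, adjusted p = 0.0494 by edgeR), where 11.6% of all genes passed. This rests on a gene that entered the Y198F comparison through its controls, with 0, 5 and 11 counts in the mutants. With all 8 groups in a single fit it was 3.43 (edgeR adjusted p = 0.174), and 0.577% of genes passed. Its 3 Panx1 KO values were 2.12, 1.79 and 2.56 CPM, beside 1.14, 1.39 and 3.09 CPM in WT. For Y198F against Y308F, the difference of Nt5e was -3.64 (SE 1.23, adjusted p = 0.0967 by edgeR), in a pair where 5.70% of genes passed, and 0% with all 8 groups in a single fit. For Entpd2, the Panx1 KO effect minus the S205A effect was -1.81 on the log2 scale (edgeR adjusted p = 0.999). The Y198F effect minus the S205A effect was -1.76 (edgeR adjusted p = 0.178), and the S205A effect minus the Y308F effect was 1.71 (edgeR adjusted p = 1). The shares of genes passing in those pairs were 0.00562%, 0% and 0%. For Panx1 KO against Y308F it was 0.0116%, and no member passed.

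Entpd3 carried 0 to 18 counts per library. It was at 0 in 15 of 26 libraries, including all 3 Y198F libraries and all 4 S205A controls, and at 3 counts or fewer in 18. The highest value was 0.926 CPM in WT replicate 3. With edgeR's filter no comparison of Entpd3 was fitted. Exact two-sided permutation tests of its values gave p = 0.5 for Panx1 KO, 0.4 for Y198F, 0.429 for S205A and 1.0 for Y308F. The authors' deposited table for Y308F gave it a log2 fold change of -2.37 (SE 2.481, adjusted p = 1.0).

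A wider list of 37 genes that handle nucleotides or adenosine was read beside the members. Between 27 and 28 of them were tested in each comparison. None passed in Panx1 KO, S205A or Y308F, and in Y198F 2 were higher and 0 lower, where 15.0% of all genes passed. The 2 genes were Entpd6, a secreted ENTPD relative, at 0.69 (SE 0.191, adjusted p = 0.0318 by edgeR) and Ampd2, which turns AMP into IMP inside cells, at 0.39 (SE 0.119, adjusted p = 0.0452 by edgeR). With library series as a term they were at 0.47 and -0.22, each with an edgeR adjusted p of 1. At an unadjusted p under 0.05 in edgeR, 6 genes of the list were counted in Y198F, where 29.1% of all genes were. In Panx1 KO, S205A and Y308F the list had 1 each, Nt5c, Xdh and Nt5c, where the shares of all genes were 11.2%, 2.87% and 4.40%; these names were taken after their values were seen.

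Enpp2 followed the fat cell markers in both sets of libraries, as the plot of marker lists shows. Over the 17 libraries outside the 22 series, r with the white adipocyte list was 0.91 (permutation p = 1e-05, the smallest that could be given, adjusted 0.0009) and rho 0.74 (permutation p = 0.00094, adjusted 0.0445). Without the 2 farthest libraries r was 0.81 (permutation p = 0.00038, adjusted 0.0171). Within the series r was 0.96 (exact permutation p = 0.00016, adjusted 0.00521, n = 9) and rho 0.95 (exact permutation p = 0.000353, adjusted 0.0159). Without the 2 farthest libraries r was 0.87 there (exact permutation p = 0.0107, adjusted 0.193), so it no longer passed. The 2 highest Enpp2 libraries, WT replicate 3 at 33.3 CPM and Y198F replicate 3 at 25.1 CPM, were also highest for that list, which summed to 3138 and 2304 CPM in them. Of 12896 genes, the 3 most like Enpp2 in log2 CPM were Lipe, Lpl and Plin1, with r of 0.92, 0.91 and 0.91 outside the series and 0.97, 0.96 and 0.95 within it. Lipe and Lpl encode lipases of fat tissue and Plin1 coats lipid droplets; Lipe and Plin1 are themselves on the list.

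By both measures 3 other relations passed, all within the 22 series. Entpd5 rose with the endothelial list (r = 0.91, exact permutation p = 0.000174, adjusted 0.00521; rho = 0.93, exact permutation p = 0.00075, adjusted 0.0225). It went the opposite way to the smooth muscle list (r = -0.92, exact permutation p = 0.000361, adjusted 0.00812; rho = -0.97, exact permutation p = 0.000165, adjusted 0.0149). Alpl also ran against smooth muscle (r = -0.88, exact permutation p = 0.00178, adjusted 0.0321; rho = -0.92, exact permutation p = 0.00131, adjusted 0.0236). Without the 2 farthest libraries their r values were 0.84, -0.72 and -0.78, none past the threshold over the 90 relations (adjusted p = 0.193, 0.424 and 0.377). In the 17 libraries outside the series, r was 0.48, -0.52 and -0.11 (permutation p adjusted to 0.166, 0.128 and 0.782) and rho 0.27, -0.46 and 0.15.

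By Pearson's measure only, Entpd1 ran against the mast cell list in the 17 libraries outside the series (r = -0.71, permutation p = 0.0015, adjusted 0.0472; rho = -0.69, permutation p = 0.0027, adjusted 0.081). Without the 2 farthest libraries that r was -0.78 (permutation p = 0.00074, adjusted 0.0222). The mast cell list lay near the floor, with sums from 0.415 to 13.0 CPM over all groups, and Fcer1a was at 0 in each group but the Y308F controls. With the macrophage list Entpd1 passed by Spearman's measure only (r = -0.66, permutation p = 0.00416, adjusted 0.0535; rho = -0.74, permutation p = 0.00099, adjusted 0.0445). Enpp3 followed the lymphocyte list by Pearson's measure only (r = 0.69, permutation p = 0.00234, adjusted 0.0472), and without the 2 farthest r was 0.56 (permutation p = 0.0304, adjusted 0.211). Within the 22 series none of these relations passed. There r of Entpd1 was -0.15 with the mast cell list and -0.33 with the macrophage list, and that of Enpp3 with the lymphocyte list was 0.57 (exact permutation p adjusted to 0.785, 0.564 and 0.391).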

How the data were processed

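Column-purified artery RNA was read as pairs of 150 bases, per the labels' protocols. The authors mapped reads to GRCm39 with STAR 2.7.9a, counted them with featureCounts (Rsubread 2.20.0) and tested the counts with DESeq2 1.46.0, per the labels' protocols and the submitters' processing notes. The annotation release and strand setting are not given in the sources used here. The deposited counts are whole numbers for 57010 identifiers. A deposited normalized signal for 21031 genes was used only to find the genes by symbol. The authors' deposited comparison tables hold log2 fold changes, a test score and p-values. Of the identifiers, 56310 matched GENCODE vM39, which gave coordinates, exon lengths and coding bases.

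Each mutant group was compared with its labelled controls by edgeR's quasi-likelihood test (edgeR 4.0.16, R 4.3.3; TMM, filterByExpr with a minimum count of 10, robust fit) on all genes. Benjamini-Hochberg adjusted p-values under 0.05 passed. The SE of an edgeR value was derived as the size of its log2 fold change divided by the square root of the test's F statistic. Differences between mutation effects were interactions in models of 4 groups. CPM used TMM factors over all 26 libraries, and log2 CPM a prior count of 2. Single values had exact two-sided permutation tests of the difference of mean log2 CPM. Relations with marker lists were computed separately in the 22 series (exact) and outside it (1e+05 permutations), with libraries permuted without regard to group. The edgeR fit was tested on simulated data.

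The rule for the 10 genes used symbols only, but the genes and the lists were chosen with earlier results of these data known. Genes named are these 10, genes of the 37-gene list past the threshold (at most 5 per comparison), and for each member with a mean of at least 20 counts the 3 genes with the highest r of log2 CPM over the 17 libraries outside the 22 series. Also named were Panx1, the targeted gene, and Npdc1, Gm63526, Coq6, Bbof1 and Pkig, whose exons overlap those of members. Nt5c, Xdh and single marker genes were named after their values were seen. The marker lists, of 8 genes each, covered endothelial, smooth muscle, fibroblast and adventitia, white adipocyte, Schwann cell and myelin, lymphocyte, macrophage, mast cell, mesothelium and intestinal epithelium. Alternatives were DESeq2 1.42.0, DESeq2 size factors in edgeR, no filter, all 8 groups in a single fit, library series as a term or within the series, S205A controls of the series for Y198F, a replicate block, each library left out, and other transcript lengths. The series coefficient, the relations among members, the variance between groups, the canonical transcript length and the check of the deposited Y198F fold changes against each group were added after seeing the data.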

Additional observations from a re-analysis of the deposited data

Results flagged for a closer look

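Enpp1 in S205A control replicate 2 was far below the other libraries of its group, at 27.5 CPM against 37.3 to 39.4 CPM. The gap to the next library was 0.83 of the group's range. In the groups of 4 libraries, 20 sets of values were examined this way, and chance alone marks about 1 in 20 groups. In the same library Alpl was the highest of its group, at 79.1 CPM.

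The effect on Nt5e differed between Panx1 KO and Y198F, with a difference of 3.46 on the log2 scale (SE 1.06, edgeR adjusted p = 0.0494). With all 8 groups in a single fit its adjusted p was 0.174. Nt5e passed the filter on low counts in the Y198F line only through its controls, since the mutants had 0, 5 and 11 counts. All Y198F libraries belong to the 22 series and the Panx1 KO, WT and Y198F control libraries do not, so series and mutation cannot be told apart in this difference.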

How the results depend on the processing

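Of the single log2 fold changes recomputed under alternatives, 415 kept direction and side of the threshold, 53 turned, 7 fell short of the threshold and 1 newly passed it. All that turned were values not past the threshold. Nt5e in Y198F accounted for the count of members past the threshold, 1, which went to 0 with all 8 groups in a single fit, with series as a term (no gene passed), with the replicate block, with S205A controls of the 22 series (where Nt5e was filtered out), and ranged from 0 to 1 with each library left out. The replicate block gave Nt5e -3.28 (edgeR adjusted p = 0.0746) and changed no other member's call. Replicate numbers pair no samples here, since deviations of same-numbered libraries correlated at -0.28 to 0.23. For S205A the count of 0 became 1 (Entpd2) with DESeq2. Members that differed between 2 mutation effects went from 1 to 0 with all 8 groups in a single fit and with series as a term. Relations past the Pearson threshold went from 5 to 3 outside the 22 series (Enpp2 with white adipocyte and Entpd1 with mast cell kept, Entpd1 with macrophage newly past, at r = -0.82) and from 5 to 0 within it, without the 2 farthest libraries. Entpd1's share of the summed level, 64.9%, was 55.5% with canonical transcript lengths. Over all genes, the knockout count of 5 became 107 with DESeq2, 243 without a filter and 18 with the block; Y198F's 2411 became 922 with all 8 groups; with each library left out the knockout count ranged from 1 to 5 and that of Y198F from 908 to 2128; the 2004 genes that differed between the Panx1 KO and Y198F effects became 108 with all 8 groups and 3 with series as a term, and the 979 between Y198F and Y308F became 0 with each; S205A's 0 became 40 with DESeq2, and Y308F's 0 became 7 without a filter. Turned values by setting were as follows, and the cause was not tested. With DESeq2, Enpp3 in Panx1 KO was at -0.0033 and Entpd5 in Y308F at 0.0025. With DESeq2 size factors Enpp3 in Panx1 KO was at -0.0034, with all 8 groups at -0.02 and with series as a term at -0.02. With no filter Entpd5 in Y308F was at 0.0048. With the replicate block, Entpd5 was at -0.01 in Y198F and 0.03 in Y308F, and Nt5e at 0.49 in S205A. In Y198F with series as a term, Enpp1 was at 0.01, Enpp3 at 0.73 and Alpl at -0.04. Against S205A controls of the series, Y198F values were 1.09 for Entpd2, 0.17 for Enpp1, 1.14 for Enpp3 and -0.16 for Alpl. In S205A, Nt5e was at 0.22 with series as a term in all 8 groups, 0.24 in the 2 groups and 0.97 within the series, where Alpl was at -0.05. With each library left out, values that turned ranged in Panx1 KO from -0.14 to 0.09 for Entpd1, -0.23 to 0.03 for Entpd5, -0.04 to 0.79 for Nt5e, -0.20 to 0.33 for Enpp3 and -0.56 to 0.0025 for Ada. In Y198F they ranged from -0.17 to 0.03 for Entpd1, -0.27 to 0.16 for Entpd5, -0.44 to 1.16 for Enpp2, -0.04 to 0.58 for Alpl and -0.36 to 0.05 for Ada. In S205A they ranged from -0.13 to 0.01 for Entpd1, -0.02 to 0.39 for Entpd5, -0.79 to 0.84 for Nt5e and -0.14 to 0.31 for Alpl. In Y308F they ranged from -0.24 to 0.05 for Entpd2, -0.14 to 0.25 for Entpd5, -0.26 to 0.96 for Nt5e, -0.89 to 0.18 for Enpp2, -0.23 to 0.20 for Enpp3 and -0.39 to 0.42 for Alpl. Depth limits Nt5e and Entpd3, which had 0 to 90 and 0 to 18 counts per library.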

Other observations

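Entpd1 had its nearest genes in Ints14, Lpp and Lrrc32, with r of 0.85, 0.83 and 0.82 across the 17 libraries outside the 22 series and -0.09, 0.79 and 0.85 in the 9 within it. Lpp encodes a focal adhesion protein of smooth muscle. For Entpd2 the nearest were Gpnmb, a membrane glycoprotein, Gli1, a transcription factor of the hedgehog pathway, and D630003M21Rik. Their r was 0.93, 0.89 and 0.89 outside the series and 0.96, 0.72 and 0.87 within it. Enpp1 was nearest to Pfkp, Pnn and Ntrk3 (0.92, 0.88 and 0.88 outside, 0.65, 0.42 and 0.73 within). Enpp3 was nearest to Syk, Fndc1 and A730020M07Rik (0.87, 0.81 and 0.80 outside, 0.67, 0.91 and 0.86 within). Alpl was nearest to Tlcd3a, Ganab and the collagen gene Col5a2 (0.90, 0.88 and 0.86 outside, 0.85, 0.48 and 0.63 within). Entpd5 was nearest to Dnaaf9, Wipf1 and Adissp (0.81, 0.79 and 0.79 outside, 0.64, 0.64 and 0.79 within). Ada had Cpxm2, Trp53i11 and Catip (0.85, 0.85 and 0.83 outside, 0.79, 0.44 and -0.50 within). For Nt5e, the nearest 3 (Gm10095, Rpl13a and Pals2) had 0.78, 0.74 and 0.73 outside and -0.33, -0.42 and -0.10 within, so none kept its sign. These values were picked as the highest of 12896 genes, and libraries share groups, so they describe likeness only.

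Among the members themselves, 36 pairs were correlated in each set of libraries, and 0 passed the threshold in either. The highest pair within the 22 series was Entpd2 with Enpp3, with r = 0.87 and rho = 0.83 (Pearson's exact permutation p adjusted to 0.0728, n = 9). The lowest was Entpd5 with Ada, with r = -0.81 (exact permutation p adjusted to 0.148). Outside the series r ran from -0.60 to 0.50.

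Neither Entpd1 nor Entpd2 kept a fixed share of the summed level per kilobase across libraries: Entpd1 ran from 53.2% to 77.3% and Entpd2 from 4.52% to 23.4%.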
